A study of Mus musculus with 28 samples.

Results

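The Notch pathway genes Hes1, Hes5, Hey1, Hey2, Heyl, Nrarp, Notch1, Dtx1, Rbpj and Dll1 were examined in peak lists from chromatin immunoprecipitation followed by sequencing (ChIP-seq) in mouse embryonic stem cells (mESCs). These 10 genes were taken by name from the 22380 protein-coding genes of the mm9 annotation, and each was described over its gene body and 20 kb on each side, called its window. The groups compared were the haploid line HATX in the wild-type context (WT) and HATX with a deletion of Spen (clone 2, Spen KO), so that the mutant was a single clone. Both lines carried a doxycycline-inducible Xist transgene, had a mixed genomic background and were grown in serum and LIF, and the labels name no doxycycline treatment for these samples. Of the 28 samples, 16 were ChIP libraries, with 2 per genotype for each of H3K27Ac (found at active enhancers and promoters), H3K4me3 (found at promoters), H3K9me3 (found in silent chromatin) and the transcription factor Oct4. The other 12 were inputs. The files gave 10 lists, 1 per genotype for each histone mark and 1 per library for Oct4.

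Notch signalling passes between touching cells. Binding of a ligand such as Dll1 on a cell leads to cleavage and release of the intracellular part of a receptor such as Notch1 on its neighbour, which enters the nucleus and joins the DNA-binding protein Rbpj. Without it, Rbpj holds corepressors at its targets, and Spen is known as one of these, which is why this set of genes was examined. The bHLH repressors Hes1, Hes5, Hey1, Hey2 and Heyl and the feedback regulators Nrarp and Dtx1 are well-known targets of the pathway. In mm9 the genes and their strands were Hes1 at chr16:30064470-30067882 (plus), Hes5 at chr4:154335032-154336480 (plus), Hey1 at chr3:8663362-8667039 (minus), Hey2 at chr10:30552165-30562607 (minus), Heyl at chr4:122910799-122927118 (plus). The others were Nrarp at chr2:25036278-25038850 (plus), Notch1 at chr2:26313423-26372183 (minus), Dtx1 at chr5:121130211-121161936 (minus), Rbpj at chr5:53947018-54048684 (plus) and Dll1 at chr17:15504318-15513836 (minus).

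The lists give positions and scores but no read counts, so the depth of each library is unknown. With 1 list per genotype, differences in a histone mark had no test between genotypes, and counts of genes are set beside the share of all protein-coding genes under the same rule. Strength is given as the percentile of a peak's score within its own list, where 100 is the strongest. Which output of the peak caller was used as the score of the H3K27Ac and H3K4me3 lists, and which caller made the H3K9me3 list, is not given in the sources used here, so strength means rank by the deposited score. The lists held 13922 WT and 11932 Spen KO peaks for H3K27Ac, 34823 and 31091 for H3K4me3, 53745 and 70268 for H3K9me3, and from 1806 to 4111 per library for Oct4. Of 9 matched mESC markers, 8 had a promoter H3K27Ac peak in each genotype, against 0 of 7 matched markers of other cell types. The deletion is described as most of the Spen gene, without coordinates in the sources used here, and the peak lists did not check it. The Spen promoter carried H3K4me3 in both genotypes (percentile 68.0 in WT and 89.4 in Spen KO) and H3K27Ac in Spen KO alone (98.6), and H3K4me3 covered 15.85 kb of the Spen window in WT and 32.31 kb in Spen KO. Whether any of these peaks lies in the deleted part was not tested. The WT replicate 1 Oct4 library shared at most 24.8% of its peaks with any other library, while each of the other 3 libraries shared up to between 40.7% and 54.2%, so Oct4 results are also given without it.

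Sequences are shown first, because the results turn on a few of these promoters and sites. RefSeq promoter sequences (GRCm38.p6, 250 bases before to 50 after a transcription start site, TSS) were matched for 7 of the 10 genes. Those of Hes1, Hey1 and Heyl are not shown. Rbpj and Dll1 each had 2 listed promoters, of which the one with more motif copies is printed. The promoters of Hes5, Hey2 and Rbpj are printed because they hold the Rbpj core motif TGGGAA on either strand, and those of Nrarp and Dll1 because they hold the Oct4 octamer ATGCAAAT, a choice made after the search. Each runs 5′ to 3′ on the strand of the gene over the first 270 bases, and capitals mark the motifs, with TTCCCA and ATTTGCAT as their reverse complements.
Hes5 promoter: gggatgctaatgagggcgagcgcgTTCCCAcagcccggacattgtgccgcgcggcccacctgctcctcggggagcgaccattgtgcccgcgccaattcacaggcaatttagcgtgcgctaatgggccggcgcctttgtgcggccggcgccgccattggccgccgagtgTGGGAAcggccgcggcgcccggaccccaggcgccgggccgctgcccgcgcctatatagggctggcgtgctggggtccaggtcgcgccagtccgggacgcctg
Hey2 promoter: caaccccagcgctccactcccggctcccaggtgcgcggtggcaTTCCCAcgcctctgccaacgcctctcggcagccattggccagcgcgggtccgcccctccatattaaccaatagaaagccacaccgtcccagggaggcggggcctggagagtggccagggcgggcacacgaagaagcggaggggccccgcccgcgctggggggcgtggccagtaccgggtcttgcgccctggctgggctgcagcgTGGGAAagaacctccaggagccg
Rbpj promoter: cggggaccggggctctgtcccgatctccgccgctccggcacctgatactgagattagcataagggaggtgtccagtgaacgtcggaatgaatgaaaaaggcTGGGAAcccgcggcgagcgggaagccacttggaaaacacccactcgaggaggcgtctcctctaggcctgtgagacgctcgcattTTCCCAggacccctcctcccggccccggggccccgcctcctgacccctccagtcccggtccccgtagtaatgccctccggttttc
Nrarp promoter: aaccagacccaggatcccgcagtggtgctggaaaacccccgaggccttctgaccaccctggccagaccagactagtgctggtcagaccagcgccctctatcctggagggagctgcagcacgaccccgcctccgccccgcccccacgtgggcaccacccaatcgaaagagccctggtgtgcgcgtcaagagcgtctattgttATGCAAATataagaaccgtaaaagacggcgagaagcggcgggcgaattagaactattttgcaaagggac
Dll1 promoter: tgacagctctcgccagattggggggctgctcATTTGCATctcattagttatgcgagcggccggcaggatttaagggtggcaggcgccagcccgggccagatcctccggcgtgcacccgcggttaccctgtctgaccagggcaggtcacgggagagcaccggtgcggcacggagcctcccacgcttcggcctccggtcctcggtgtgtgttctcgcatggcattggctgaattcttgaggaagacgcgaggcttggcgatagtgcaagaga
Hes5 and Hey2 each held 2 copies of the core in opposite orientations, and every copy extended to GTGGGAA. Their first bases lay at positions -226 and -82 in Hes5 and at -207 and -3 in Hey2, counted from the TSS. Among all 32851 RefSeq promoters of this length, 25.6% held TGGGAA and 6.38% held GTGGGAA on either strand. The printed Rbpj promoter held 2 copies of TGGGAA, at -149 and -65, neither of which extended to GTGGGAA. Which of the annotated mm9 starts of Rbpj it belongs to was not tested. The octamer, found in 1.74% of all promoters, began at -49 in Nrarp and at -219 in Dll1.

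H3K4me3 marked a promoter of all 10 genes in both genotypes, meaning that a peak lay within 1 kb of an annotated protein-coding TSS. The same held for 65.3% of all protein-coding genes in WT and 63.8% in Spen KO. H3K27Ac was much scarcer. A promoter peak was called at Hes1 and Rbpj in WT and at Rbpj alone in Spen KO, beside 19.3% and 20.7% of all genes. The windows of Hes5, Hey1, Hey2, Heyl, Nrarp and Dll1 held no H3K27Ac peak in either genotype, as at 56.6% of all genes. No H3K9me3 domain reached a promoter of the 10 genes in either genotype, beside 11.7% of all genes.

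The strength of the promoter H3K4me3 peaks differed between the lists for most of the genes. Both Spen KO libraries ranked the strongest promoter peak below both WT libraries at 7 of the 10 genes. These were Hes1, Hes5, Hey1, Hey2, Nrarp, Dtx1 and Dll1, beside 26.9% of the 14149 genes with a promoter peak in both genotypes. The opposite order was found at Rbpj alone, beside 13.9% of genes. The median difference in percentile, Spen KO minus WT, was -18.4 over the 10 genes and -2.8 over all 14149. A drop of this size was not limited to these genes. Over the 7 matched markers of other cell types, which also lacked promoter H3K27Ac, the median was -17.5, with 6 of 7 lower and 3 of 7 with both Spen KO libraries below both WT libraries. Over 9 mESC markers it was -3.5. Of the 10 genes, 8 had no promoter H3K27Ac in either genotype, as had 8979 of the 14149. Among these, both Spen KO libraries were below both WT libraries at 6 of 8 and 29.1%. They were above both WT libraries at 0 of 8 and 12.7%. By the difference in percentile, 7 of 8 and 61.3% were lower in Spen KO, and 1 of 8 was higher. The 2 scores of a peak are not tied to named libraries, and the WT list was longer than the Spen KO list, which shifts percentiles of equal peaks. With lists cut to equal length the median difference of the 10 genes was -15.3.

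**Figure D1:**
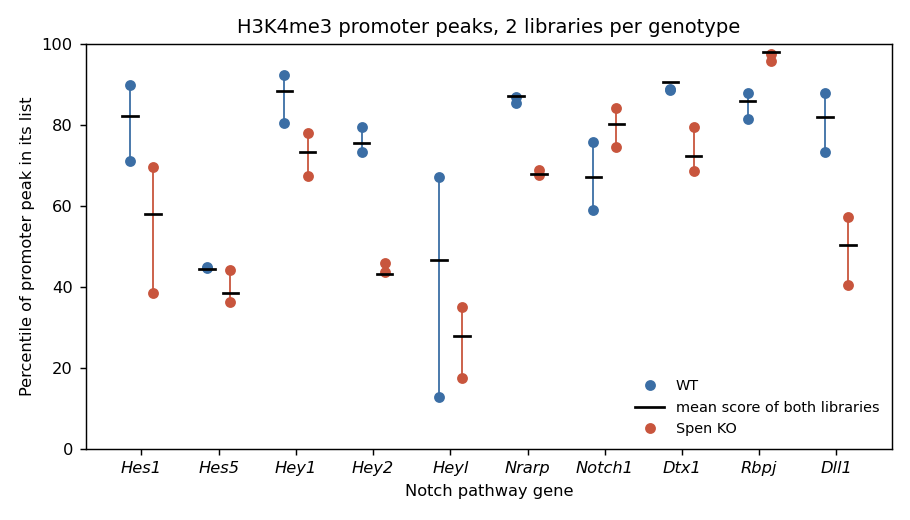
Percentile of the strongest promoter H3K4me3 peak within its list (y axis, percent) for each gene (x axis) in WT (blue) and Spen KO (red). Points are the 2 libraries of each genotype and black bars the percentile of their mean score. Both red points lie below both blue points at 7 genes and above them at Rbpj.

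Among the bHLH repressors, the difference in percentile within the list, Spen KO minus WT, was -32.2 at Hey2 and -24.1 at Hes1. The Hey2 promoter peak stood at percentiles 73.2 and 79.6 in the WT libraries and 43.6 and 45.8 in the Spen KO libraries, so the genotypes were well apart. Hey1 stood at 92.4 and 80.6 in WT against 78.0 and 67.5 in Spen KO. The Hes1 peak over the gene body, the stronger of its promoter peaks, stood at 71.2 and 89.8 in WT against 69.6 and 38.4 in Spen KO, which leaves the nearest libraries almost level. The other Hes1 promoter peak stood at 77.3 and 49.6 in WT against 54.8 and 40.0 in Spen KO, so the libraries overlapped there. At Hes5 the values were 44.8 and 44.7 in WT against 36.2 and 44.1 in Spen KO. Heyl did not separate the genotypes, with 12.9 and 67.1 in WT against 35.1 and 17.6 in Spen KO, and its WT libraries were the farthest apart of any of the genes. Ranked among promoters with a peak in both genotypes, Hes5 turned slightly the other way, from 6.0 in WT to 7.6 in Spen KO, while Hey2 went from 41.2 to 10.1 and Hes1 from 55.4 to 22.1, so that Hes1 then dropped slightly more than Hey2.

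The feedback regulators and the ligand followed the same order. Nrarp, which binds the Notch intracellular domain and limits its signal, stood at 86.9 and 85.4 in WT against 68.8 and 67.7 in Spen KO. Dtx1, an E3 ubiquitin ligase of the Deltex family, stood at 88.8 and 88.6 in WT against 68.6 and 79.5 in Spen KO. The ligand gene Dll1 stood at 88.0 and 73.4 in WT against 57.3 and 40.4 in Spen KO. In each of these 3 genes every Spen KO library lay below every WT library, and the libraries of Nrarp lay close together in both genotypes.

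The receptor gene Notch1 and the effector gene Rbpj went the other way. Notch1 carried its promoter H3K4me3 at an internal start, where its listed RefSeq promoter lies, and none at its outermost annotated TSS. That peak stood at 59.1 and 75.9 in WT against 84.1 and 74.6 in Spen KO, so the libraries overlapped. The strongest Rbpj promoter peak, at its first TSS, stood at 88.0 and 81.5 in WT against 95.7 and 97.5 in Spen KO. There both Spen KO libraries were above both WT libraries. By the mean score, that peak ranked 4947 of 34823 in WT and 651 of 31091 in Spen KO. The promoter peak at the internal Rbpj starts stood at 76.8 and 77.2 in WT against 98.6 and 50.0 in Spen KO, so the libraries overlapped.

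Coverage of the windows by H3K4me3 peaks gave a second view of the same loci. Summed over the 10 windows it was 96.7 kb in WT and 90.1 kb in Spen KO, a log2 ratio of -0.10, beside -0.36 for the whole lists. The log2 ratio was -0.54 without Rbpj, below that of the whole lists, and -0.48 in the stronger 50% of each list. Thus the sum rested on Rbpj. The cut also dropped shared peaks in Spen KO alone, such as that at the Hey2 promoter (percentile 75.5 in WT and 43.3 in Spen KO). It therefore does not show how much of the sum came from weak peaks. The whole-list ratio in the stronger 50% was not computed, so -0.48 has no such value beside it. Coverage was lower in Spen KO at 9 genes and higher at Rbpj, beside 87.4% and 12.5% of the 17782 genes with a peak in the window, so lower coverage was the general case. Hes5 was the single gene at which covered bases were at least 2-fold lower in Spen KO, with 1 kb added to both values, as at 2.63% of all genes. There the promoter peak was 5996 bp wide in WT and 2611 bp in Spen KO. No window was 2-fold higher, beside 0.246% of all genes.

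**Figure D2:**
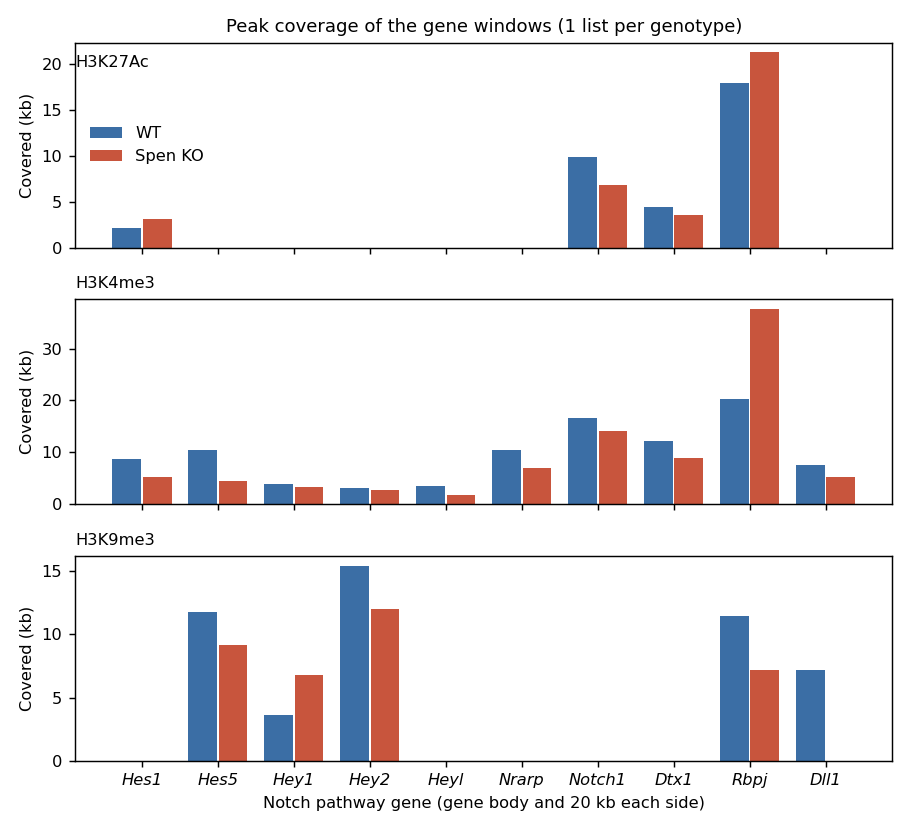
Kilobases of each window (gene body and 20 kb each side) covered by peaks, for H3K27Ac, H3K4me3 and H3K9me3, in WT (blue) and Spen KO (red), from 1 list per genotype and without error bars. Rbpj has 37.60 kb of H3K4me3 in Spen KO and 20.28 kb in WT, and all other H3K4me3 bars are lower in Spen KO.

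Rbpj (chr5:53947018-54048684, plus strand, mm9) stood apart in extent. Its window had 20.28 kb of H3K4me3 in WT and 37.60 kb in Spen KO, and this difference of 17.32 kb was rank 3 of 22380 genes, behind Jarid2 with 50.20 kb and Myst4 with 36.03 kb and just ahead of Spen itself with 16.47 kb. The ratio with 1 kb added was 1.81, rank 90 of 22380. WT had 8 peaks in the window, all shared, and Spen KO had 21, of which 15 were absent from WT, 14 of these in introns of Rbpj. The Spen KO-only peaks were weak, with percentiles from 0.4 to 26.9 and a median of 7.1. They covered 13.90 kb in all. In the stronger 50% of each list the log2 ratio was -0.49 in place of 0.89. That cut kept a shared intronic peak in WT (5.46 kb, percentile 59.5). It dropped the wider counterpart in Spen KO (6.15 kb, percentile 49.4). The turn in direction thus depended on where the cut fell and does not show that strong H3K4me3 shrank. The strong peaks at both groups of annotated starts were shared.

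H3K27Ac at Rbpj was strong at the same starts in both genotypes. The peak at the first TSS ranked 561 of 13922 in WT and 413 of 11932 in Spen KO. At the internal starts, the peak stood at percentile 80.3 in WT and 92.0 in Spen KO, with library values of 84.4 and 70.2 against 90.9 and 91.8. Covered bases were 17.93 kb in WT and 21.23 kb in Spen KO, a difference in kb equalled or exceeded at 1.21% of all genes. The ratio with 1 kb added was modest, 1.17, rank 2518 of 22380.

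Past the 3′ end of Rbpj, 3 H3K27Ac peaks appeared in the Spen KO list alone, between chr5:54059098-54059723 and chr5:54063013-54064035, intergenic and 10.41 to 14.33 kb beyond the gene. Their percentiles were 15.6, 47.6 and 81.3, and the last stood at 83.7 and 78.3 in the libraries. In WT an H3K9me3 domain, chr5:54059401-54068800 (9.40 kb, percentile 52.1), began within the first of these peaks and covered the rest of the stretch. In Spen KO it was called over chr5:54063601-54067600 (4.00 kb, percentile 43.8). The strongest H3K27Ac peak began before the remaining domain and ended inside it, and a weak Spen KO-only H3K4me3 peak (percentile 15.1) lay in the same place. Of the 31-base words in this peak, 98.9% occurred once in the mm9 genome, so it was mostly single-copy sequence. The central 300 bases of that peak, chr5:54063375-54063674 on the plus strand of mm9, are shown as the sequence that carried H3K27Ac in Spen KO alone, and neither the Rbpj core nor the octamer occurred in them.
Peak past Rbpj: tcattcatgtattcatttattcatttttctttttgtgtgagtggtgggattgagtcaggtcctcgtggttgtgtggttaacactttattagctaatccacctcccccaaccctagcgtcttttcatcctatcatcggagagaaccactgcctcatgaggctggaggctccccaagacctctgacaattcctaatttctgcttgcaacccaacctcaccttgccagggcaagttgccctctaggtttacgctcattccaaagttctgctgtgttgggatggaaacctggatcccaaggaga

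**Figure D3:**
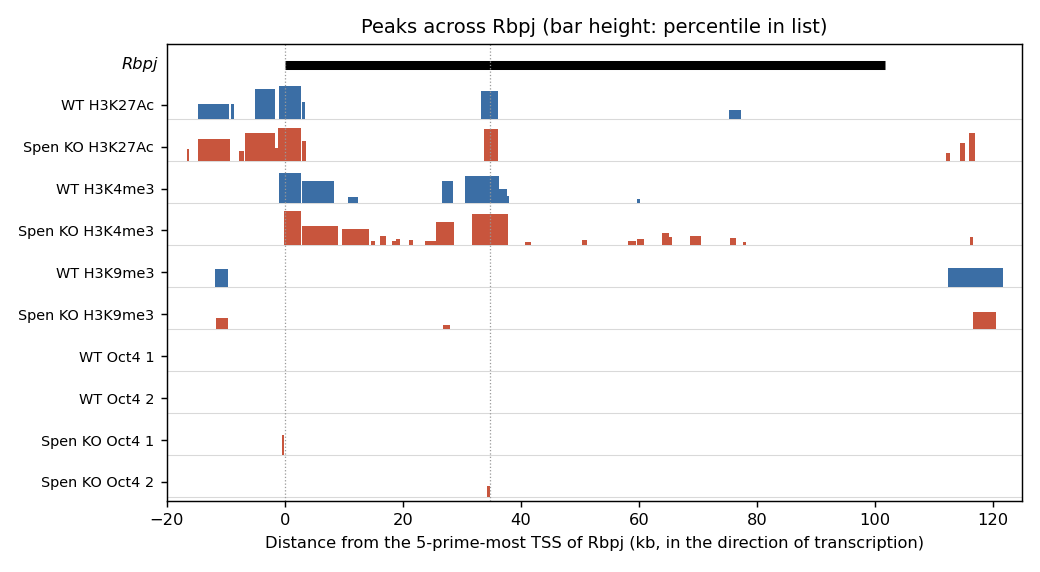
Peaks across Rbpj by distance from its 5-prime-most TSS (x axis, kb), with 1 row per list, WT in blue and Spen KO in red, bar height showing the percentile in the list. Dotted lines mark the first and the last annotated TSS. Many low red H3K4me3 bars fill the gene body, and red H3K27Ac bars stand past the 3′ end where the WT H3K9me3 domain is wide.

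The other H3K27Ac sites were few. Over the 10 windows, 19 WT and 22 Spen KO peaks covered 34.3 and 34.7 kb, a log2 ratio of 0.02 beside -0.33 for the whole lists. No window differed 2-fold, while 2.43% of all genes were higher and 6.83% lower in Spen KO by that rule. Without Rbpj the log2 ratio was -0.28. The 1 promoter call in a single genotype was Hes1 in WT, beside 2.89% of all genes with a WT-only and 4.29% with a Spen KO-only promoter peak. It rested on the 1 kb limit. The WT peak, chr16:30063382-30064570, lay 856 bp from the TSS and the Spen KO peak, chr16:30063343-30064386, lay 1040 bp from it, the 2 peaks overlapped, and their percentiles were 82.4 and 85.7. With 2.5 kb on each side both genotypes had the peak.

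Downstream of Hes1, both genotypes had H3K27Ac 13.46 to 16.00 kb beyond the gene. The strongest peak there was in Spen KO alone, chr16:30082085-30082861, at percentile 71.2 with library values of 66.4 and 74.7. A WT-only peak, chr16:30081339-30081983 (percentile 22.9), ended just before it, so both calls rested on the lack of overlap. The strongest H3K27Ac within Notch1 lay at its 3′ end. In WT it was 1 peak that included coding exons, chr2:26313504-26318654 (percentile 94.9), whose nearest TSS was that of Sec16a, 12768 bp away. In Spen KO it was called as 2 peaks, a stronger one over exon sequence that is not coding, chr2:26313497-26314917 (94.6), and a weaker one over coding exons, chr2:26314925-26317893 (84.5). The same window held 5 WT-only peaks beside the start of the neighbouring gene Sec16a, at percentiles from 5.1 to 63.0. At Dtx1, the 2 upstream peaks lay nearer to Oas2 than to Dtx1 and stood at percentiles 58.3 and 71.8 in WT against 26.5 and 26.9 in Spen KO.

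H3K9me3 was found in the windows of Hes5, Hey1, Hey2 and Rbpj in both genotypes and of Dll1 in WT alone, always away from the promoter, beside 54.5% and 4.4% of all genes. Coverage summed to 49.5 kb in WT and 35.2 kb in Spen KO, a log2 ratio of -0.49 beside -0.09 for the whole lists. The direction turned with windows of 5 kb on each side, where the log2 ratio was 1.49. The strongest domain lay past the 3′ end of Hey2, chr10:30531601-30544200 in WT, where it ranked 499 of 53745, and chr10:30532001-30544000 in Spen KO, where it ranked 3384 of 70268. Both WT domains in the Dll1 window, 7.20 kb in all, were absent from the Spen KO list, and they were weak, with percentiles of 10.7 and 5.7. Dll1 was the single gene with at least 2-fold fewer covered bases in Spen KO, beside 7.81% of all genes, and 0 of 10 had 2-fold more, beside 5.69%. Hey1 had a Spen KO-only domain of 1.60 kb, which ranked 60813 of 70268.

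Oct4, a core transcription factor of pluripotent cells, had overlapping peaks in at least 3 of the 4 libraries at Dll1, Nrarp and Notch1, while 6.37% of all genes had a peak in the window in at least 3. Peaks numbered 4 and 4 in the WT libraries and 5 and 4 in the Spen KO libraries, a mean of 4.0 ± 0.00 (SD, n = 2) against 4.5 ± 0.71 (SD, n = 2), and the difference of 0.5 gave p = 1 in a two-sided exact permutation test. The WT libraries had a peak at 4 and 3 of the genes and the Spen KO libraries at 5 and 4, differing by 1.0 with an exact p of 0.667. With 2 libraries per genotype the smallest p was 0.333. A peak was found in all 4 libraries in 3 windows, Dll1, Nrarp and Notch1, beside 2.1% of all genes, and none in any library at Hey1, Hey2, Heyl or Dtx1, as at 71.1% of all genes.

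The strongest site was upstream of Dll1, intergenic and 4596 to 4836 bp from its TSS. Fold enrichment over input was 6.35 and 11.4 in WT replicates 1 and 2 and 5.90 and 9.07 in Spen KO replicates 1 and 2, so the genotypes overlapped and replicate 2 was the higher in both. The site ranked 113 of 4111 in WT replicate 2 and 301 of 3028 in Spen KO replicate 2. All 4 peaks overlapped each other. The site lay under an H3K4me3 peak in WT, chr17:15517149-15518714 (percentile 30.9, libraries 16.4 and 42.5), that had no counterpart in the Spen KO list. The 300 bases around the summit in WT replicate 2, chr17:15517679-15517978, are printed on the minus strand of mm9, the strand of Dll1.
Oct4 site upstream of Dll1: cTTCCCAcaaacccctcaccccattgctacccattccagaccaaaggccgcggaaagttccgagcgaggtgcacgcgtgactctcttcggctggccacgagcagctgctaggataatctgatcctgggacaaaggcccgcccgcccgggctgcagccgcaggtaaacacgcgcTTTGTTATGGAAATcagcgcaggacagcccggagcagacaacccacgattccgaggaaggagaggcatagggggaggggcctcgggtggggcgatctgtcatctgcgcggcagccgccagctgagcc
The second run of capitals is a match to TTTGT followed, after 1 base, by ATGNAAAT, in which N is any base. This pattern of joined Sox and Oct motifs was searched for on both strands after this sequence was seen. It was present within 100 bases of the summit in all 4 libraries at this site, and in 0.222% and 0.292% of the windows of WT replicates 1 and 2 and 0.191% and 0.43% of those of Spen KO replicates 1 and 2. The first run of capitals is an Rbpj core. The exact octamer did not occur there, and over all peaks it was found in 3.22% to 5.72% of such windows.

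**Figure D4:**
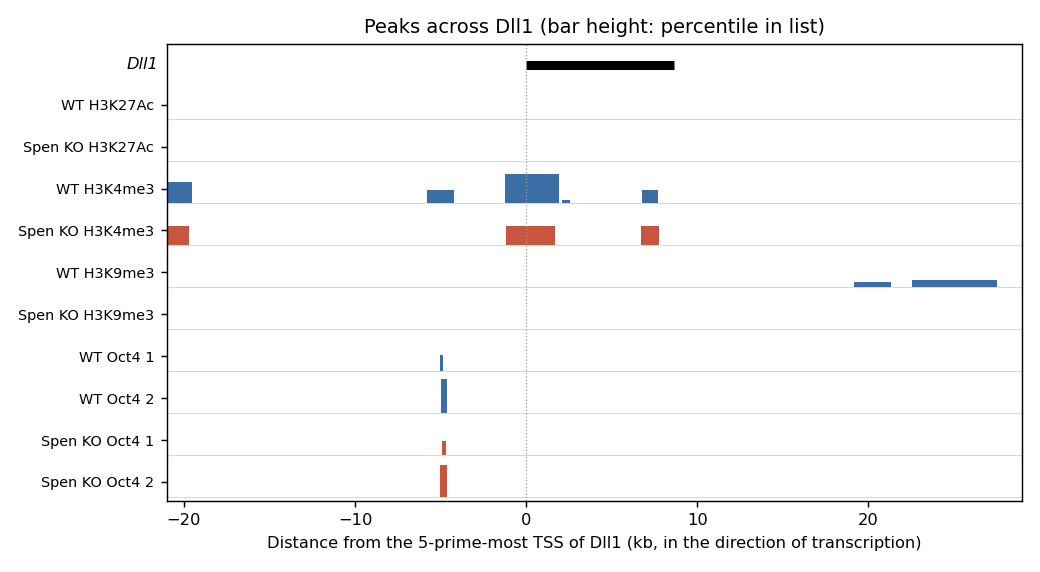
Peaks across Dll1 by distance from its TSS (x axis, kb), with 1 row per list, WT in blue and Spen KO in red, bar height showing the percentile in the list. The Oct4 peak about 5 kb upstream is present in all 4 libraries, and the H3K4me3 peak over it and the 2 H3K9me3 domains are in WT alone.

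At Nrarp, an Oct4 peak lay at the promoter or first exon in every library, with fold enrichments of 6.74 and 5.63 in WT against 5.92 and 7.36 in Spen KO. The WT replicate 1 peak lay just upstream and overlapped the Spen KO replicate 1 peak but not the other 2. The octamer lay within 100 bases of its summit, and not of those of the other 3. At Notch1, peaks at the internal start had fold enrichments of 6.76 and 6.74 in the second WT library. They were 6.23 and 4.38 in replicates 1 and 2 of Spen KO. WT replicate 1 had none there, and its peak in the Notch1 window lay at the promoter of Sec16a. The 300 bases just upstream of that start, chr2:26359343-26359642 on the minus strand of mm9, held neither motif, while the octamer lay within 100 bases of the summit of the farther WT replicate 2 peak.
Upstream of the internal Notch1 start: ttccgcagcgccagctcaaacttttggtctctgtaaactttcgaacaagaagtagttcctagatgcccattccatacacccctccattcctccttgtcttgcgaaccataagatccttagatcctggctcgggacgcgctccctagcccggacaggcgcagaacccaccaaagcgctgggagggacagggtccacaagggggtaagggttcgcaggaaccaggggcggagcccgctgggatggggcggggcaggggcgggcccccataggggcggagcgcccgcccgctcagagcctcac

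Rbpj was the single gene whose window held Oct4 in each Spen KO library but neither WT library, beside 1.01% of all genes. The 2 peaks were at different starts, the first TSS in replicate 1 (fold enrichment 6.50) and an internal TSS in replicate 2 (5.59), so no single site was shared. Hes1 had a peak in WT replicate 1 alone (5.78), and the Hes5 window had one at the promoter of Pank4 in Spen KO replicate 1 (6.50). Without WT replicate 1, the difference in genes with a peak was 1.5.

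**Figure D5:**
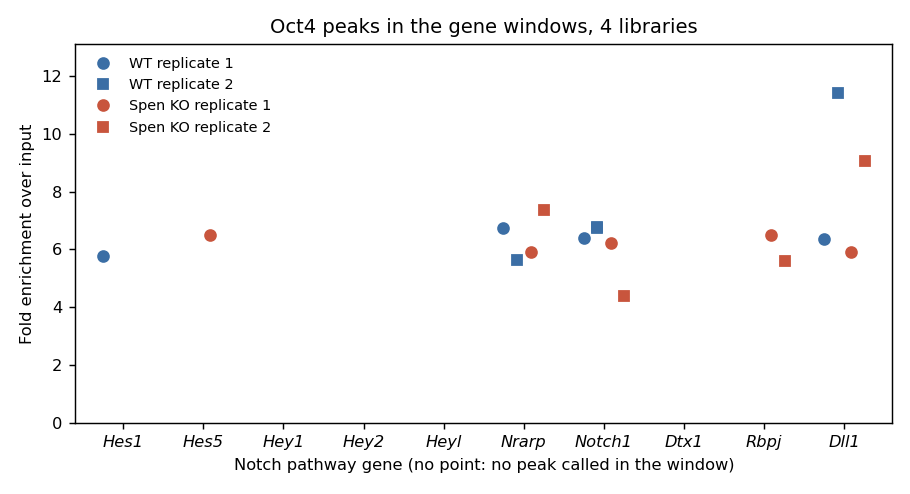
Fold enrichment over input (y axis) of every Oct4 peak in the window of each gene (x axis), with circles for replicate 1 and squares for replicate 2, WT in blue and Spen KO in red. Dll1, Nrarp and Notch1 have a peak in all 4 libraries, and Dll1 reaches 11.4 in WT replicate 2.

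The rest of the pathway was read from a list of 49 other genes, all matched. H3K4me3 marked the promoter of 48 in each genotype, and both Spen KO libraries were below both WT libraries at 11 of the 48 (22.9%) and above them at 7 (14.6%). These shares lay near the 26.9% and 13.9% of all genes, and the median difference in percentile was -2.1. H3K27Ac marked 23 of the 49 promoters in WT and 21 of the 49 in Spen KO, beside the 19.3% and 20.7% of all genes. It was in WT alone at 4 of 49 and in Spen KO alone at 2 of 49, beside 2.89% and 4.29% of all genes. Of promoters with H3K27Ac in WT, 4 of 23 lacked it in Spen KO, beside 647 of 4310 over all genes. Of those with it in Spen KO, 2 of 21 lacked it in WT, beside 960 of 4623. Promoters with it in WT alone included those of Mib1, a ubiquitin ligase for ligands (percentile 31.5), Numbl, related to the Notch inhibitor Numb (63.8), and Hes3 (0.8). It was in Spen KO alone at Ncstn, a gamma-secretase subunit (6.6), and the corepressor Ctbp1 (51.3). H3K9me3 lay at a promoter in WT alone at Mfng, a Fringe glycosyltransferase, beside 2.35% of all genes. Oct4 peaks were in the window in at least 3 of 4 libraries at 7 of the 49 genes, beside 6.37% of all genes. These included Notch2, Lfng, Maml2, Kat2b, Ctbp2 and Cir1. Examples chosen after their values were seen lay on both sides. The receptor Notch2 went from percentile 91.8 in WT to 71.9 in Spen KO, Hes2 from 79.6 to 43.0, Dll4 from 50.9 to 79.5 and Cir1, a corepressor of Rbpj, from 60.0 to 97.5, all 4 with the libraries of the genotypes apart.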

How the data were processed

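H3K27Ac, H3K4me3, H3K9me3 and Oct4 peak lists from WT and Spen KO mESCs were analysed, grouped by the sample labels. According to their methods, the authors mapped reads to mm9 with Bowtie2, discarded duplicates with Picard, and used MACS2 with input as background at a q-value of 0.01. The deposited H3K27Ac and H3K4me3 lists give a score for each library, from a column of the caller that is not named, and an irreproducible discovery rate below 0.05, and the mean score ranked peaks. The filter removes the least reproducible peaks, but kept peaks can still differ between libraries. In WT the Heyl promoter H3K4me3 peak stood at percentiles 12.9 and 67.1. The deposited H3K9me3 score, of domains in 200 bp windows, fits 100 times a log2 ratio over input, and its caller and whether libraries were pooled are not given in the sources used here. The deposited Oct4 lists give the fold enrichment, a ratio over input, and a q-value as −log10 that the authors computed. It is not printed. The authors compared genotypes by counts with DESeq2, which could not be repeated without counts. They describe the libraries as technical replicates, so the p-values cover that spread.

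Starts are counted from 1. A peak counted where it overlapped by at least 1 bp, at a promoter within 1 kb of any protein-coding TSS of the GENCODE mm9 annotation. A peak missing from a list may lie just below the calling threshold. All 10 genes were named. Other genes were named where a histone promoter peak was in 1 genotype or Oct4 in at least 3 libraries, and as examples chosen after their values were seen. Some genes that the rule would name are not reported here. The genes and lists were chosen with earlier results of these data known. Oct4 counts were compared with two-sided exact permutation tests over 6 assignments of libraries. Scripts ran in Python 3 with pandas and numpy and were tested on simulated data. Alternatives were other windows, promoter widths, score cutoffs, equal list lengths, nearest-TSS peaks, leaving out each Oct4 library and the replicate number as a block. Leaving out Rbpj, the alternatives for promoter percentiles and for Rbpj alone, the promoters without H3K27Ac and the copy counts were added after the data were seen.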

Additional observations from a re-analysis of the deposited data

How the results depend on the processing

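Of 59 alternatives over 10 results, 49 counted as unchanged. This asked for the same sign and a shift of under log2(1.5) for covered bases and for a change of at most 1.5 times for counts of genes, but for the same direction alone, whatever the size, for the Oct4 differences and the median percentile. The H3K27Ac log2 ratio of 0.02 turned to -0.16 with windows of 5 kb on each side and to -0.28 without Rbpj. The H3K4me3 log2 ratio of -0.10 was -0.54 without Rbpj and -0.48 in the stronger 50%. The H3K9me3 log2 ratio of -0.49 turned to 1.49 with windows of 5 kb, where few domains remain. The H3K4me3 difference at Rbpj, 0.89 on the log2 scale, turned to -0.49 in the stronger 50% of the lists, where a wide shared peak near the cut was kept in WT alone. The 1 gene with promoter H3K27Ac in 1 genotype became 0 with a promoter of 2.5 kb on each side and with a gap of up to 1 kb, and the 0 genes with promoter H3K4me3 in 1 genotype became 1 in the stronger 50%. The median H3K4me3 promoter difference of -18.4 ran from -28.6 to -11.6 over its alternatives. The Oct4 peak difference of 0.5 was 0.0 with windows of 50 kb and with lists of equal length and 1.0 with windows of 5 kb, and leaving out each library in turn gave 0.0 to 1.0, the lowest without Spen KO replicate 1 and the highest without Spen KO replicate 2. For genes with an Oct4 peak the difference of 1.0 was 1.5 with windows of 5 kb and 0.5 with lists of equal length, and leave-outs gave 0.5 to 1.5. In the paired fit with the replicate block, the differences stayed at 0.5 and 1.0, with exact p of 1 and 0.5, the latter the smallest that 2 pairs allow. The numbers are not known to pair the libraries, and deviations of same-numbered libraries correlated at 0.01 over all genes. Histone lists could not be rerun without a library, because each joins both.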
